A study of Homo sapiens with 31 samples.

Results

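The genes described here are 45 genes of the cell division cycle, 20 that act in DNA replication (S phase) and 25 that act in mitosis. They were listed by name, and all 45 were found in the deposited table of 17113 protein-coding genes and passed the filter on low counts. The study sequenced total RNA of colorectal cancer cell lines, pure and diluted into total RNA of a normal colon line, to test the computational separation of cancer and normal RNA in mixtures of known make-up. Pure RNA came from the adenocarcinoma lines LoVo, LS1034, HT-29 and HCT116, and from CCD 841 CoN, a line labelled normal, with 3 libraries per line. Each cancer line was also mixed into CCD 841 CoN at 0.1, 1, 10 and 50% of the RNA, with 1 library per mixture. The labels name no treatment, all lines were grown in medium with serum, and the labels place LS1034 in the cecum and the other lines in the colon.

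CCD 841 CoN is the only normal line, so cancer status, cell type and growth state cannot be told apart in any comparison with it. The 7 epithelial markers summed to 3445 to 24660 CPM (a gene's counts scaled to the library total) in the cancer libraries, against 239.6 to 314.9 CPM in CCD 841 CoN. The 8 fibroblast markers summed to 1.51 to 38.4 CPM in the cancer libraries, against 32300 to 38810 CPM in CCD 841 CoN. By these markers CCD 841 CoN did not resemble colon epithelium, and 1 of its 7 epithelial markers, ESRP1, was at 0 counts in all 3 libraries. The libraries held 9688765 to 56741879 counts, and the fewest counts of any of the 45 genes in a library was 38 (POLE2). Nothing in the labels says whether a line's 3 libraries were separate cultures, so the p-values measure the spread between these libraries, which may be technical. CPM is not scaled to gene length and is compared here between libraries of 1 gene, not between genes. The fold changes below also use a library scaling (TMM) that CPM lacks. Its factors were 0.84 to 0.86 in CCD 841 CoN and 0.96 to 1.16 in the cancer libraries. Ratios of the printed CPM to CCD 841 CoN are therefore larger than the fitted folds, which matters for values near the fold limit. Overlap between libraries is also read in CPM, and libraries set narrowly apart in CPM can overlap once scaled.

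A dividing cell copies its DNA in S phase and shares the copies out in mitosis, and the genes for the 2 steps are switched on at different times. Before S phase, ORC, CDC6 and CDT1 load the ring of MCM2 to MCM7 onto DNA. CDC45 and the GINS complex then turn that ring into the moving helicase, and the polymerases, held by the PCNA clamp, copy the strands. Many of these genes are transcribed through E2F factors, which the retinoblastoma protein holds back until cyclins with their kinases, cyclin E among them, release them. Later, cyclin A and cyclin B with CDK1 drive the cell into mitosis, Polo and Aurora kinases build the spindle, and the checkpoint proteins BUB1, BUB1B, MAD2L1 and TTK delay CDC20 and the anaphase ubiquitin ligase until chromosomes are attached. These later genes are transcribed through the MuvB complex with B-MYB and FOXM1, which reads a promoter element called CHR. Colon crypts renew throughout life, and both sets of genes are active there in the dividing cells at the crypt base.

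The promoters of the 2 sets were read in RefSeq's windows of 250 bases before to 50 bases after the gene start (GRCh38.p14), where 35 of the 45 genes matched (17 S-phase and 18 mitotic). MCM4, MCM5, CCNE2, FOXM1, AURKA, TTK, UBE2C, BIRC5, TPX2 and HMGB2 did not match. The words searched on both strands were TTTCCCGC, TTTGGCGC, TTTCGCGC and TTTGCCGC for E2F, TTTGAA and TTCGAA for CHR, and CCAAT, the box of the factor NF-Y. Only the first listed window of each gene was used. An E2F word stood in 12 of 17 S-phase windows (70.6%) and in 3 of 18 mitotic windows (16.7%). The share was 3.33% over the first windows of all 27305 genes, which include genes outside the 17113 of the count table. The CHR words showed the opposite order, with 13 of 18 mitotic windows (72.2%) and 1 of 17 S-phase windows (5.88%), against 16.6% of all first windows. CCAAT stood in 14 of 18 mitotic (77.8%) and 10 of 17 S-phase windows (58.8%), against 35.7% of all first windows. Only these words were searched, and the E2F words can overlap on opposite strands, as in MCM6. A match describes the letters and does not show a bound factor.

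The bases before the start are printed for 4 S-phase genes, with E2F words in capitals, and for 4 mitotic genes, with CHR words in capitals, because these words were found at different shares in the lists. MCM6 is the 1 S-phase window that also holds a CHR word, ttcgaa near its far end, left in lower case. The windows are chr2:135876444-135876693 (MCM6, minus strand), chr16:88803539-88803788 (CDT1, plus strand), chr20:5126623-5126872 (PCNA, minus strand), chrX:24693668-24693917 (POLA1, plus strand), chr15:59104896-59105145 (CCNB2, plus strand), chr16:23678639-23678888 (PLK1, plus strand), chr15:40160819-40161068 (BUB1B, plus strand) and chr10:128126424-128126673 (MKI67, minus strand), all on GRCh38.p14 and read 5′ to 3′ along the gene. The counts were made on hg19 and share no coordinates with these windows.
MCM6: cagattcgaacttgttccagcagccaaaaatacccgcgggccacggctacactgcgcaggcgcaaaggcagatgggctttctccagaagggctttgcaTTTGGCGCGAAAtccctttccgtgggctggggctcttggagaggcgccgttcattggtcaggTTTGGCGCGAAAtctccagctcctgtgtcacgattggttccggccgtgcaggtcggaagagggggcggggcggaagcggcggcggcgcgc
CDT1: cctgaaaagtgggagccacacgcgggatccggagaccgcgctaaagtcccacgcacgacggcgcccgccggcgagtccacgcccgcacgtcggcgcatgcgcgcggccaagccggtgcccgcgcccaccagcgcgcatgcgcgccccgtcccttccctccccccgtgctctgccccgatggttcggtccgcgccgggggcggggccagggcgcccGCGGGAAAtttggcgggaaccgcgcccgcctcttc
PCNA: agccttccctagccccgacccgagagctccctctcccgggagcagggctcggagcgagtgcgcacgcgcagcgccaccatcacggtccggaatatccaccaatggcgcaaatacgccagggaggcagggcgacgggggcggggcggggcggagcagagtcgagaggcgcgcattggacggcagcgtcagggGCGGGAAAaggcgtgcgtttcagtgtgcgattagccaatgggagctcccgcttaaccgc
POLA1: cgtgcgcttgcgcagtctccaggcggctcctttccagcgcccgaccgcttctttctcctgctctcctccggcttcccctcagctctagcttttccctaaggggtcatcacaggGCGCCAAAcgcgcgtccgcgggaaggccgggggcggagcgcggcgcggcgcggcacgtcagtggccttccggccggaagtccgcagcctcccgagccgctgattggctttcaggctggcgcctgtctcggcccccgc
CCNB2: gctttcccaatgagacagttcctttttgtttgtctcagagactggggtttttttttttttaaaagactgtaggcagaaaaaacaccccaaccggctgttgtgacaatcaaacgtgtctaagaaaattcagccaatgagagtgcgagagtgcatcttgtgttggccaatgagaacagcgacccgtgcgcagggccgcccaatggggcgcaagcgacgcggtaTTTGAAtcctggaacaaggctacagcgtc
PLK1: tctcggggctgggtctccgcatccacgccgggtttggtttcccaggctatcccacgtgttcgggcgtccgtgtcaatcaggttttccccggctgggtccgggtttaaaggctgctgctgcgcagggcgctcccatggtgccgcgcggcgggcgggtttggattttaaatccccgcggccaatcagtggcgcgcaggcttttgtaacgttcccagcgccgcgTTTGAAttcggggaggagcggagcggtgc
BUB1B: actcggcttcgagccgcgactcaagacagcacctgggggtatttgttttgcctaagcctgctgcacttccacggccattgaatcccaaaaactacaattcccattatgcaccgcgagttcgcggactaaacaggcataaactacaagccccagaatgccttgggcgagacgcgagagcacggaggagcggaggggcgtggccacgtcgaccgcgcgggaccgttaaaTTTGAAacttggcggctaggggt
MKI67: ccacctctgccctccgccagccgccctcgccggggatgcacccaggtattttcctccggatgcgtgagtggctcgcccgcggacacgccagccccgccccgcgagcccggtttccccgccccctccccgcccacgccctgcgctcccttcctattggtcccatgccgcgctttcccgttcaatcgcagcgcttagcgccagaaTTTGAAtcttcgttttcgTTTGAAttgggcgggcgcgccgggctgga

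**Figure D1:**
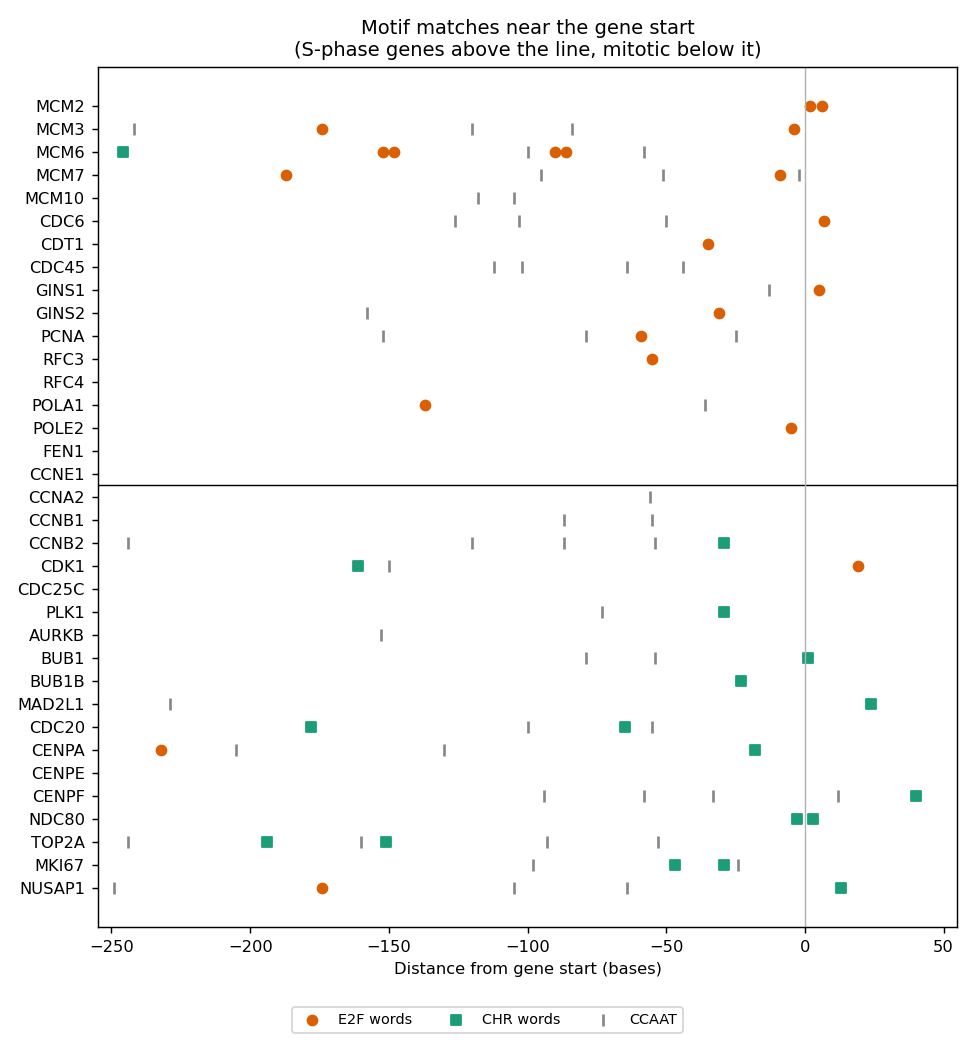
Matches of the E2F words, the CHR words and CCAAT in the RefSeq promoter windows of 17 S-phase genes (above the line) and 18 mitotic genes (below it), by distance of the match from the gene start in bases. E2F words stand in 12 of the 17 windows above the line, and CHR words in 13 of the 18 below it.

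Both sets were higher in the cancer lines than in CCD 841 CoN, and none of the 45 genes was called lower in any line. A gene was called at a Benjamini-Hochberg adjusted p below 0.05 (edgeR quasi-likelihood test, adjusted over all 14452 genes tested) if its log2 fold change was also 1 or more in either direction. In LoVo 34 of 45 genes were called higher (10 of 20 S-phase, 24 of 25 mitotic), where 26.4% of all genes tested were called higher. In LS1034 30 were called higher (11 S-phase, 19 mitotic; 25.7% of all genes), in HT-29 41 (16 and 25; 24.7%), and in HCT116 all 45 (25.4%). Over the mean of the 4 cancer lines 41 were called higher (17 S-phase, 24 mitotic; 24.8% of all genes). In bulk RNA, fewer cycling cells and less RNA per cell cannot be told apart.

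The median log2 fold change of the mitotic genes was 2.14 in LoVo, 1.78 in LS1034, 2.10 in HT-29 and 2.37 in HCT116. That of the S-phase genes was 1.18, 1.33, 1.504 and 2.48 in the same order, and the median of all genes tested was 0.21 to 0.24. HCT116 is the line in which the S-phase median was above the mitotic one, a difference that was not tested. Its libraries did not all share that order in log2 CPM over the CCD 841 CoN mean. Replicate 1 had medians of 2.40 (S-phase) and 2.58 (mitotic), replicate 2 of 2.93 and 2.66, and replicate 3 of 2.88 and 2.70. The 4 line comparisons share the CCD 841 CoN libraries. In 26 genes (7 S-phase, 19 mitotic) the call was made in all 4 lines, and in 12 in 3 lines. CDC45, CDC6 and CENPE were called in 2 lines, and CCNE1, CCNE2, MCM10 and MCM5 in HCT116 alone. The share of all genes called in as many lines was not counted, so these counts have no background beside them. In CPM, all 12 cancer libraries lay above all 3 CCD 841 CoN libraries for 13 of 20 S-phase and 22 of 25 mitotic genes. Of all genes tested, 20.2% did so. These counts lack the TMM scaling, whose smaller factors in CCD 841 CoN make them lower. MCM4, MCM6, POLE2, CCNB1 and CENPE, counted here, overlap once scaled.

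**Figure D2:**
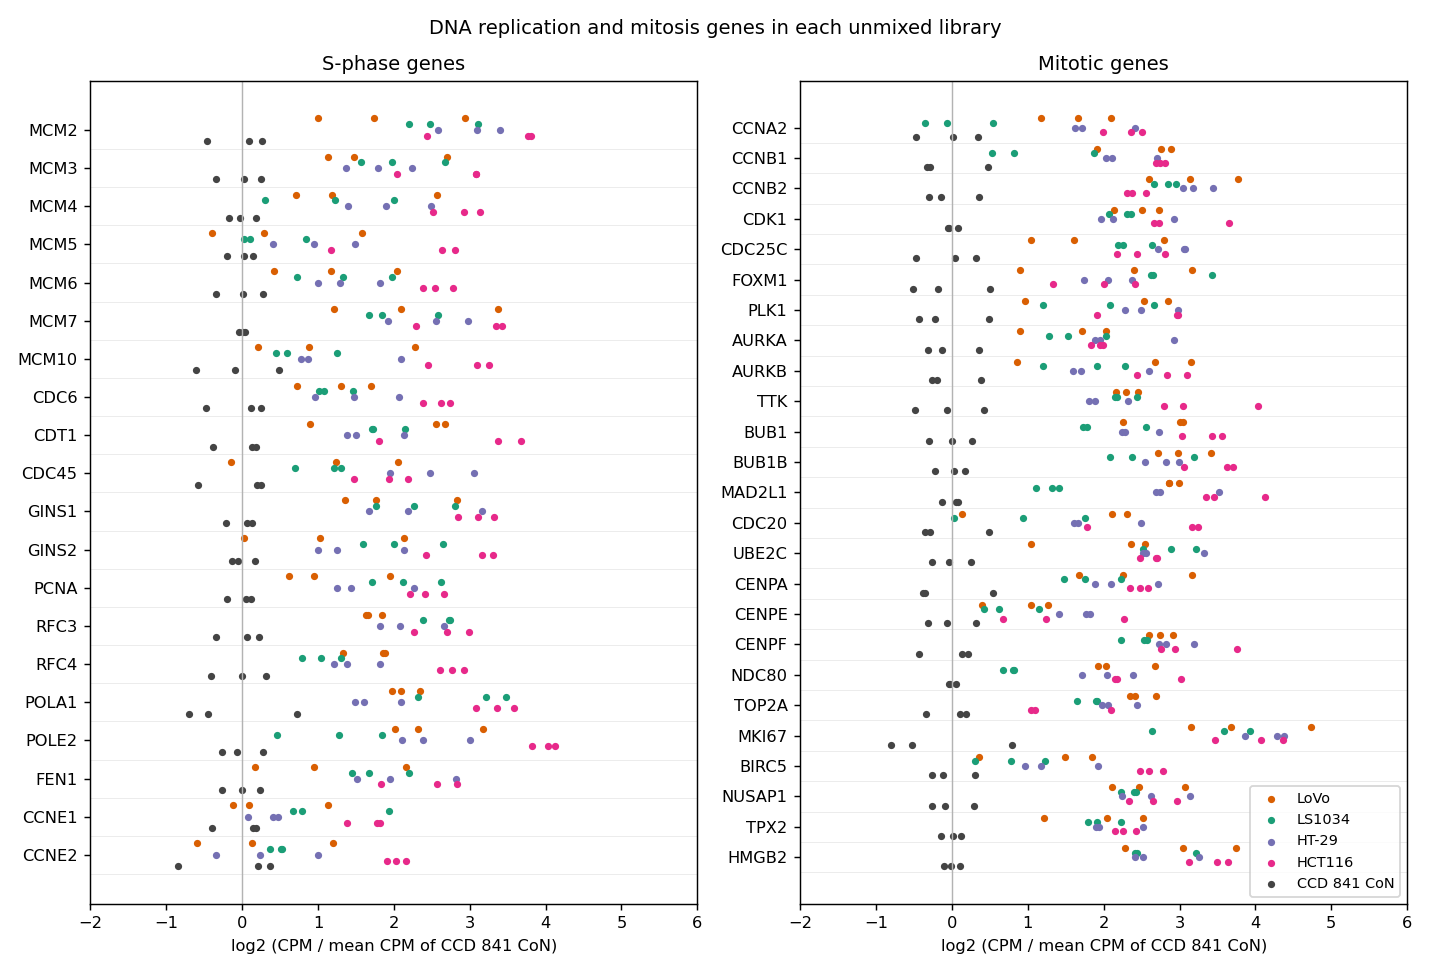
Level of each S-phase gene (left) and mitotic gene (right) in each unmixed library, as log2 of its CPM over the mean CPM of CCD 841 CoN; each point is 1 library and 0 is the CCD 841 CoN mean. Nearly all cancer points lie to the right of 0, with the HCT116 points farthest right among most S-phase genes and the CCNA2 points of LS1034 around 0.

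Of the 12 licensing and helicase genes, 11 were called higher over the mean of the cancer lines, and MCM5 was not. MCM2, a subunit of the replicative ring, stood at 70.4, 269 and 118 CPM in LoVo, 197, 303 and 162 CPM in LS1034, 212, 301 and 373 CPM in HT-29, 191, 492 and 479 CPM in HCT116, against 25.6, 42.4 and 37.7 CPM in CCD 841 CoN. The lowest cancer library lay above the highest CCD 841 CoN library, and the change was the largest of this group (log2 fold change 2.52 ± 0.40, edgeR adjusted p = 4.65e-05). MCM7, another ring subunit, stood at 193, 865 and 356 CPM in LoVo, 300.0, 497 and 266 CPM in LS1034, 317, 489 and 657 CPM in HT-29, 409, 849 and 894 CPM in HCT116, against 85.1, 83.7 and 80.9 CPM in CCD 841 CoN. Again no library overlapped (log2 fold change 2.25 ± 0.40, edgeR adjusted p = 0.000135), while LoVo replicate 2 carried more than 4 times the level of LoVo replicate 1. MCM5 of the same ring stood at 38.8, 153 and 62.1 CPM in LoVo, 52, 91.1 and 54.9 CPM in LS1034, 67.9, 98.2 and 143 CPM in HT-29, 115, 317 and 356 CPM in HCT116, against 44.6, 52.1 and 56.4 CPM in CCD 841 CoN. Its LoVo and LS1034 libraries overlapped CCD 841 CoN, and the mean change missed the threshold (log2 fold change 0.81 ± 0.37, edgeR adjusted p = 0.0707), whereas HCT116 alone was called (2.04 ± 0.46, edgeR adjusted p = 0.00152).

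MCM3, MCM4 and MCM6 of the ring were called, with mean log2 fold changes of 1.88 ± 0.35, 1.67 ± 0.38 and 1.39 ± 0.31 (edgeR adjusted p = 0.000213, 0.00133 and 0.00116). The LoVo call of MCM3 ended without LoVo replicate 2 (0.94), and that of MCM4 without LoVo replicate 2 (0.61) or CCD 841 CoN replicate 1 (1.28, adjusted p = 0.0541 in edgeR). The levels of MCM6 were 108 ± 59.5 CPM in LoVo, 114 ± 48.5 CPM in LS1034, 112 ± 33.4 CPM in HT-29 and 252 ± 36.2 CPM in HCT116, against 42.3 ± 8.81 CPM in CCD 841 CoN (SD, n = 3 each). Its calls in LS1034 and HT-29 ended without LS1034 replicate 2 (log2 fold change 0.72) or without HT-29 replicate 3 (0.88), as they did without CCD 841 CoN replicate 1 (1.00 and 1.04, with adjusted p = 0.0651 and 0.0561 in edgeR). The loaders CDC6 and CDT1 were higher by 1.37 ± 0.26 and 1.94 ± 0.41 over the mean (edgeR adjusted p = 0.000298 and 0.00068). CDC6 ranged over 52.6 to 212 CPM (median 88.1) in the cancer lines, against 23, 34.6 and 38 CPM in CCD 841 CoN. CDC6 reached the fold limit in HT-29 and HCT116, and its HT-29 call ended without HT-29 replicate 3 (0.97). CDT1 was called in every line, although its HT-29 call ended without HT-29 replicate 3 (1.17) or CCD 841 CoN replicate 2 (1.32), with adjusted p = 0.0596 and 0.0575 in edgeR.

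The activators of the ring were GINS1 and GINS2, CDC45 and MCM10. GINS1 was called in each line (mean log2 fold change 2.21 ± 0.36, edgeR adjusted p = 6.93e-05), and GINS2 in all but LoVo (mean 1.70 ± 0.38, edgeR adjusted p = 0.0012). The HT-29 call of GINS2 ended without HT-29 replicate 3 (0.86) or without CCD 841 CoN replicate 1 (1.26) or replicate 3 (1.29). CDC45 stood at 16, 73.9 and 42 CPM in LoVo, 28.8, 41.1 and 44 CPM in LS1034, 68.8, 98.9 and 148 CPM in HT-29, 49.4, 68.2 and 80.7 CPM in HCT116, against 11.9, 21.2 and 20.3 CPM in CCD 841 CoN. HT-29 was its highest line, and LoVo replicate 1 lay within the range of CCD 841 CoN (log2 fold change 2.34 ± 0.45, edgeR adjusted p = 0.000389 in HT-29; 0.94 ± 0.43, edgeR adjusted p = 0.0759 in LoVo). MCM10, which helps the helicase open DNA, stood at 19, 79.9 and 30.3 CPM in LoVo, 24.8, 39.1 and 22.5 CPM in LS1034, 28.3, 30.04 and 70.6 CPM in HT-29, 89.9, 157 and 141 CPM in HCT116, against 10.8, 23.1 and 15.5 CPM in CCD 841 CoN. Every HCT116 library lay above every library of the other lines (log2 fold change 2.66 ± 0.50, edgeR adjusted p = 0.000335), and the mean call (1.34 ± 0.41, edgeR adjusted p = 0.0103) ended without CCD 841 CoN replicate 1 (1.11, adjusted p = 0.0676 in edgeR).

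All 6 fork and polymerase genes were called higher over the mean of the cancer lines. POLA1, the catalytic subunit of the polymerase that starts each strand, stood at 27.4, 32.7 and 25.2 CPM in LoVo, 59.9, 71.3 and 32.2 CPM in LS1034, 19.6, 27.3 and 18 CPM in HT-29, 77.1, 66.1 and 54.6 CPM in HCT116, against 4.71, 3.94 and 10.6 CPM in CCD 841 CoN. Its lowest cancer library lay above its highest CCD 841 CoN library (log2 fold change 2.31 ± 0.33, edgeR adjusted p = 1.89e-05), the largest change of the group. POLE2, a subunit of the leading-strand polymerase epsilon, stood at 20.5, 37.3 and 16.6 CPM in LoVo, 9.96, 14.7 and 5.67 CPM in LS1034, 17.7, 21.5 and 32.9 CPM in HT-29, 71.5, 67.5 and 58.2 CPM in HCT116, against 4.99, 3.43 and 3.92 CPM in CCD 841 CoN. HCT116 lay above all other lines and LS1034 at their low end (log2 fold change 3.68 ± 0.41, edgeR adjusted p = 2.03e-06 in HCT116; 1.00 ± 0.38, edgeR adjusted p = 0.0368 in LS1034, where it lay just under the fold limit).

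PCNA, the sliding clamp, ranged over 127 to 522 CPM (median 341) in the cancer lines, against 72.5, 90.02 and 86.1 CPM in CCD 841 CoN, with no overlap (log2 fold change 1.62 ± 0.30, edgeR adjusted p = 0.000245). PCNA in LoVo did not reach the fold limit (0.93 ± 0.34, edgeR adjusted p = 0.0314). RFC3 and RFC4, subunits of the loader that places the clamp, were higher by 2.03 ± 0.25 and 1.47 ± 0.23 over the mean (edgeR adjusted p = 3.08e-06 and 4.87e-05), RFC4 being the smallest change of the group. FEN1, the nuclease that trims the ends of lagging-strand fragments, had a mean log2 fold change of 1.65 ± 0.38, edgeR adjusted p = 0.00131, and LoVo, with 0.95 ± 0.43, edgeR adjusted p = 0.0695, missed the threshold. PCNA has processed pseudogenes, as do HMGB2, UBE2C and CDC20 below, and how reads shared with such copies were counted is not given in the sources used here.

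The cyclin E genes, which pair with CDK2 at the entry to S phase, were not called over the mean of the cancer lines. CCNE1 stood at 20.8, 42.8 and 17.9 CPM in LoVo, 31.3, 74.9 and 33.8 CPM in LS1034, 20.6, 25.9 and 27 CPM in HT-29, 51, 69 and 67 CPM in HCT116, against 14.9, 22.1 and 21.7 CPM in CCD 841 CoN. LoVo and HT-29 libraries overlapped CCD 841 CoN, and the mean log2 fold change was 0.63 ± 0.29, edgeR adjusted p = 0.073. CCNE2 stood at 12.7, 26.4 and 7.65 CPM in LoVo, 16.5, 14.9 and 16.7 CPM in LS1034, 9.15, 13.7 and 23.1 CPM in HT-29, 51.8, 47.1 and 43.3 CPM in HCT116, against 6.45, 13.4 and 14.9 CPM in CCD 841 CoN. HCT116 was the line whose libraries stood apart from CCD 841 CoN by the test, for CCNE2 (1.74 ± 0.44, edgeR adjusted p = 0.00366) and for CCNE1 (1.36 ± 0.36, edgeR adjusted p = 0.00459), while the mean change of CCNE2 was 0.55 ± 0.36, edgeR adjusted p = 0.195.

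Among mitotic genes, all 6 cyclins, CDK1 and its activators were called higher over the mean of the cancer lines. CCNB2, cyclin B2, stood at 207, 302 and 467 CPM in LoVo, 216, 267 and 248 CPM in LS1034, 311, 283 and 373 CPM in HT-29, 202, 178 and 169 CPM in HCT116, against 44.1, 31.1 and 27.8 CPM in CCD 841 CoN. The groups did not overlap, and the change was the largest of this group (log2 fold change 2.64 ± 0.28, edgeR adjusted p = 5.27e-07). CCNA2, the cyclin that acts in late S phase and G2, stood at 131, 249 and 185 CPM in LoVo, 45.6, 85.3 and 55.9 CPM in LS1034, 191, 180.3 and 311 CPM in HT-29, 333, 300.2 and 232 CPM in HCT116, against 74.1, 42.1 and 58.9 CPM in CCD 841 CoN. The LS1034 libraries overlapped CCD 841 CoN (-0.19 ± 0.32, edgeR adjusted p = 0.627), unlike those of the other lines, and CCNA2 had the smallest mean change of the group (1.22 ± 0.27, edgeR adjusted p = 0.0012). CCNB1, cyclin B1, was called in LoVo (2.23 ± 0.37, edgeR adjusted p = 9.68e-05), HT-29 and HCT116, and in LS1034 it stayed under the fold limit (0.90 ± 0.35, edgeR adjusted p = 0.0432).

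CDK1, the mitotic kinase, ranged over 235 to 759 CPM (median 325) in the cancer lines, against 63.8, 58.8 and 58.3 CPM in CCD 841 CoN, and was called in each line (mean log2 fold change 2.27 ± 0.30, edgeR adjusted p = 8.22e-06). CDC25C, the phosphatase that activates CDK1, and FOXM1, the transcription factor of the late genes, were higher by 2.16 ± 0.37 and 2.04 ± 0.39 over the mean (edgeR adjusted p = 0.000109 and 0.000313). FOXM1 stood at 40.9, 197 and 116 CPM in LoVo, 138, 237 and 135 CPM in LS1034, 73.4, 91.6 and 113 CPM in HT-29, 55.2, 117 and 87.8 CPM in HCT116, against 31, 15.4 and 19.4 CPM in CCD 841 CoN. All cancer libraries lay above the normal ones, with LS1034 at the top of the lines and LoVo replicate 1 the lowest. The LoVo value of CDC25C fell below the fold limit without LoVo replicate 3 (0.96).

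The 6 mitotic kinases were called higher in all 4 cancer lines. BUB1B, a checkpoint kinase-like protein, stood at 117, 189 and 140.2 CPM in LoVo, 92.1, 162 and 75.1 CPM in LS1034, 104, 125 and 142 CPM in HT-29, 232, 219 and 148 CPM in HCT116, against 20.1, 15.2 and 18.1 CPM in CCD 841 CoN. It had the largest change among the kinases (log2 fold change 2.69 ± 0.27, edgeR adjusted p = 3.2e-07), and the lowest cancer library was over 3 times the highest normal one. AURKA, the spindle-pole kinase, had the smallest (1.59 ± 0.30, edgeR adjusted p = 0.00028) and ranged over 87.1 to 354 CPM (median 176) in the cancer lines, against 59.9, 37.6 and 42.4 CPM in CCD 841 CoN. Its LoVo call stayed under the fold limit without LoVo replicate 3 (0.98). PLK1, the Polo kinase, ranged over 78.7 to 319.7 CPM (median 229.9) in the cancer lines, against 56.7, 30.01 and 34.5 CPM in CCD 841 CoN (log2 fold change 2.13 ± 0.41, edgeR adjusted p = 0.000344). AURKB, the kinase of the chromosomal passenger complex, TTK and BUB1 were higher by 2.01 ± 0.42, 2.20 ± 0.30 and 2.37 ± 0.27 (edgeR adjusted p = 0.000624, 1.2e-05 and 1.3e-06).

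MAD2L1, CDC20 and UBE2C, of the checkpoint and the anaphase ubiquitin ligase, were called higher over the mean. MAD2L1, which holds CDC20 inactive, stood at 269, 296 and 269 CPM in LoVo, 79.6, 98.9 and 92.6 CPM in LS1034, 249, 239 and 426 CPM in HT-29, 646, 407 and 378 CPM in HCT116, against 39.1, 38.4 and 33.9 CPM in CCD 841 CoN. No library overlapped, and LS1034 was the low line among the cancer lines (log2 fold change 1.01 ± 0.29, edgeR adjusted p = 0.00746 in LS1034, 2.44 ± 0.27, edgeR adjusted p = 8.2e-07 over the mean). The LS1034 call of MAD2L1 sat on the fold limit and fell under it in several settings, among them without LS1034 replicate 2 (0.89) or replicate 3 (0.95). CDC20, the activator of the ligase, stood at 65.7, 296 and 258 CPM in LoVo, 61.2, 202 and 114 CPM in LS1034, 183, 190.3 and 337 CPM in HT-29, 206, 537 and 569 CPM in HCT116, against 84.1, 49 and 46.8 CPM in CCD 841 CoN. LoVo replicate 1 and LS1034 replicate 1 overlapped CCD 841 CoN, and LS1034 was not called (0.78 ± 0.52, edgeR adjusted p = 0.22). Its LoVo call (1.42 ± 0.53, edgeR adjusted p = 0.0318) ended with the replicate number as a block (1.11, adjusted p = 0.0565 in edgeR), without LoVo replicate 2 (1.04) or replicate 3 (1.19) and without CCD 841 CoN replicate 2 (1.29) or replicate 3 (1.26), and its HT-29 call ended without HT-29 replicate 3 (1.36). UBE2C, the ubiquitin-conjugating enzyme of the ligase, was called in each line (mean log2 fold change 2.33 ± 0.32, edgeR adjusted p = 1.03e-05).

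Of the 4 kinetochore genes, CENPA, CENPF and NDC80 were called over the mean and CENPE was not. CENPF, a large outer kinetochore protein, had the largest change (2.54 ± 0.27, edgeR adjusted p = 5.62e-07), with 94.1 to 270.1 CPM (median 135) in the cancer lines, against 23.3, 21.9 and 14.9 CPM in CCD 841 CoN. CENPE, the kinetochore motor, stood at 47.7, 40.8 and 26.1 CPM in LoVo, 30.4, 44 and 26.4 CPM in LS1034, 69.96, 52.7 and 67.1 CPM in HT-29, 95.2, 46.6 and 31.6 CPM in HCT116, against 24.7, 15.9 and 18.9 CPM in CCD 841 CoN. The libraries did not overlap in CPM, but LoVo replicate 3 (26.1) lay only just above CCD 841 CoN replicate 1 (24.7). With their TMM factors (1.04 and 0.84) that order turns, so the scaled libraries overlap. The mean change passed the adjusted p and missed the fold limit (0.94 ± 0.32, edgeR adjusted p = 0.0194). The HCT116 call rested on replicate 1, since the log2 fold change without it was 0.60 (without CCD 841 CoN replicate 2 it was 1.11, adjusted p = 0.0579 in edgeR). NDC80, which binds spindle microtubules, ranged over 39.6 to 199.9 CPM (median 102) in the cancer lines, against 25.8, 24.2 and 24.4 CPM in CCD 841 CoN and was not called in LS1034 (0.49 ± 0.31, edgeR adjusted p = 0.19). CENPA, the histone that marks the centromere, was called in each line (mean 1.97 ± 0.35, edgeR adjusted p = 0.000166).

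All 6 genes of chromosomes and the spindle were called over the mean, and MKI67 had the largest change of the 45 genes. MKI67, the proliferation marker Ki-67 that coats mitotic chromosomes, stood at 123, 371 and 178 CPM in LoVo, 167, 212 and 86.4 CPM in LS1034, 289, 272 and 203 CPM in HT-29, 234, 285 and 154 CPM in HCT116, against 24.1, 7.97 and 9.70 CPM in CCD 841 CoN. The lowest cancer library was over 3 times the highest normal one (log2 fold change 3.59 ± 0.44, edgeR adjusted p = 2.95e-06). HMGB2, a chromatin protein, stood at 363, 613 and 998 CPM in LoVo, 403, 396 and 689.7 CPM in LS1034, 396, 425 and 715 CPM in HT-29, 839, 652 and 925 CPM in HCT116, against 80.3, 73.8 and 69.4 CPM in CCD 841 CoN. It too was far from overlapping (2.74 ± 0.36, edgeR adjusted p = 5.71e-06). TOP2A, the topoisomerase that untangles the copies, stood at 605, 578 and 734 CPM in LoVo, 423, 427 and 357 CPM in LS1034, 614, 449 and 472 CPM in HT-29, 487, 233 and 243 CPM in HCT116, against 129, 89.9 and 122 CPM in CCD 841 CoN. LoVo was its highest line and HCT116 its lowest cancer line, and the HCT116 call (1.21 ± 0.30, edgeR adjusted p = 0.0033) fell under the fold limit without HCT116 replicate 1 (0.69).

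BIRC5, survivin of the passenger complex, had the smallest change of this group (1.26 ± 0.31, edgeR adjusted p = 0.0026), and LS1034 was not called (0.53 ± 0.36, edgeR adjusted p = 0.227). Its LoVo value (1.01 ± 0.37, edgeR adjusted p = 0.0283) sat on the fold limit and fell under it in 15 of the alternative settings, among them without LoVo replicate 3 (0.64) and with the replicate block (0.90), and its HT-29 call ended without HT-29 replicate 3 (0.79) or CCD 841 CoN replicate 3 (1.06, adjusted p = 0.0568 in edgeR). NUSAP1 and TPX2, which bind spindle microtubules, were higher by 2.30 ± 0.29 and 1.82 ± 0.26 (edgeR adjusted p = 4.86e-06 and 1.99e-05). TPX2 ranged over 194 to 481 CPM (median 359) in the cancer lines, against 91.5, 84.5 and 75.8 CPM in CCD 841 CoN, with no overlap.

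The cancer lines also differed among themselves, with HCT116 highest in most S-phase genes. HCT116 had the highest mean CPM of the 4 lines in 19 of 20 S-phase genes and in 15 of 25 mitotic genes, and LS1034 had the lowest in 18 of 25 mitotic genes. The share of all genes with HCT116 highest or LS1034 lowest was not counted, so these counts have no background beside them. An F test among the 4 lines (edgeR, with a range of at least 1 between fitted log2 levels) called 15 S-phase and 8 mitotic genes. This is 23 of 45, where 53.6% of all genes tested were called, so the count is near the background. HCT116 was highest in 22 of the 23, and HT-29 in CDC45, again with no share over all genes counted. The 14 genes called in every alternative setting were BIRC5, BUB1, CCNA2, CCNE1, CCNE2, CDC6, GINS2, MAD2L1, MCM10, MCM5, NDC80, POLA1, POLE2 and RFC4. The smallest adjusted p belonged to MAD2L1 (5.41e-05 in edgeR, range 2.38), POLE2 (0.00014, range 2.68), RFC4 (0.000253, range 1.68) and CCNA2 (0.000273, range 2.19).

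**Figure D3:**
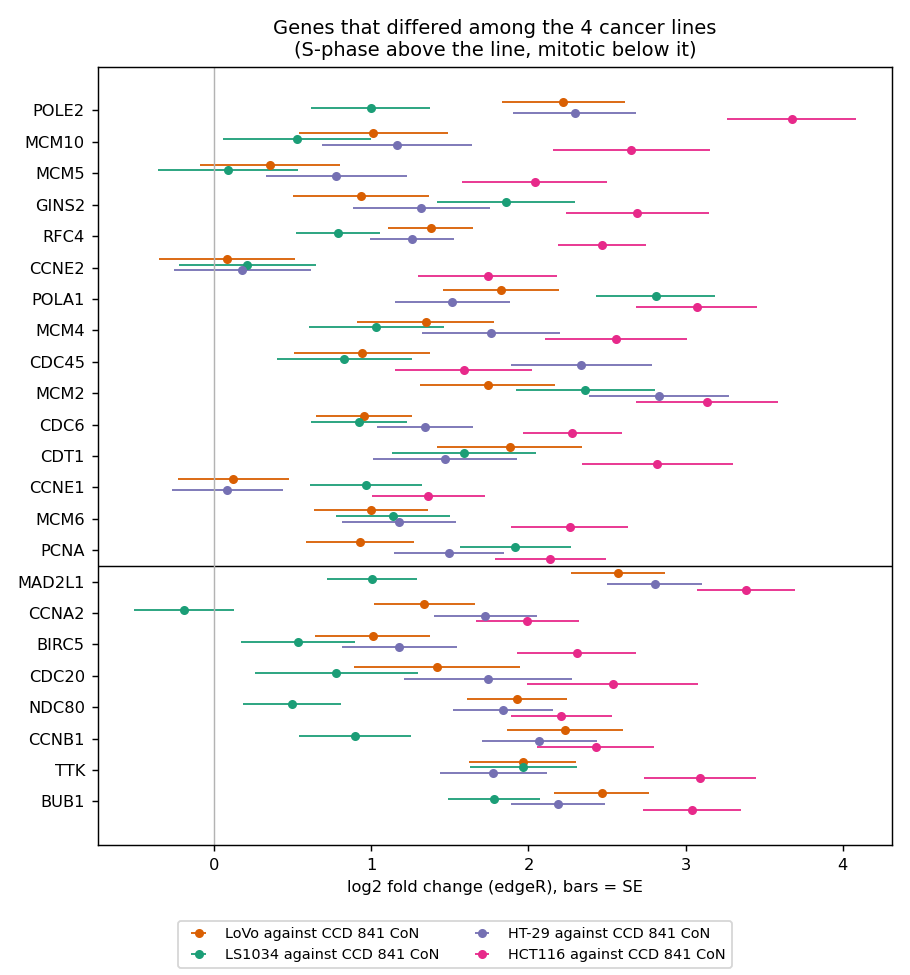
Fitted log2 fold change of each cancer line against CCD 841 CoN (edgeR) for the 15 S-phase genes (above the line) and 8 mitotic genes (below it) that differed among the cancer lines; points are estimates and bars are SE. HCT116 lies farthest right in all but CDC45, and LS1034 lies apart on the left in MAD2L1, CCNA2, NDC80 and CCNB1.

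Set against HCT116, the genes called lower in LoVo and HT-29 were mainly S-phase genes, and those in LS1034 came from both sets. In LoVo against HCT116 15 genes were called lower, 13 S-phase and 2 mitotic (10.2% of all genes tested were lower, 11.9% higher). The smallest adjusted p were those of CDC6 (-1.32 ± 0.30, edgeR adjusted p = 0.0042) and RFC4 (-1.09 ± 0.27, edgeR adjusted p = 0.00631), and the largest difference was that of GINS2 (-1.76 ± 0.44, edgeR adjusted p = 0.00721). In HT-29 against HCT116 12 genes were called lower, 10 S-phase and 2 mitotic (15.4% of all genes lower, 15.2% higher), led by RFC4 (-1.21 ± 0.27, edgeR adjusted p = 0.00222) and POLA1 (-1.56 ± 0.36, edgeR adjusted p = 0.00307). In LS1034 against HCT116 17 were called lower, 9 S-phase and 8 mitotic (16.3% lower, 16.6% higher). POLE2 (-2.68 ± 0.39, edgeR adjusted p = 5.29e-05), MAD2L1 (-2.38 ± 0.30, edgeR adjusted p = 1.28e-05) and CCNA2 (-2.19 ± 0.33, edgeR adjusted p = 8.05e-05) had the largest differences there. These counts depended on single libraries. For LoVo against HCT116 the count was 6 without LoVo replicate 1, 5 without LoVo replicate 3 and 9 without HCT116 replicate 2. For HT-29 against HCT116 it was 3 without HT-29 replicate 1, 6 without HT-29 replicate 2, 7 without HCT116 replicate 2 and 6 without HCT116 replicate 3. The genes kept in every setting were CDC6 of the 15, POLA1 and RFC4 of the 12, and 12 of the 17.

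Between the other lines fewer genes were called. With all libraries kept, the shares of these genes called higher or lower were near or below those of all genes tested. Those named below thus stand as single genes, not as a reading of either set. In LoVo against LS1034 5 genes were called higher, with 13.2% of all genes higher and 12.8% lower. They were MAD2L1 (1.56 ± 0.29, edgeR adjusted p = 0.000632), CCNA2 (1.53 ± 0.32, edgeR adjusted p = 0.00191), NDC80, CCNB1 and POLE2, of which the first 3 were kept in every setting. Without LoVo replicate 2 the count was 10 (4 higher, 6 lower), and without LS1034 replicate 1 it was 3. In LS1034 against HT-29 POLA1 was higher (1.29 ± 0.36, edgeR adjusted p = 0.0133) and 6 genes were lower (11.4% of all genes higher, 11.2% lower). MAD2L1 (-1.80 ± 0.29, edgeR adjusted p = 0.000253), CCNA2 (-1.92 ± 0.33, edgeR adjusted p = 0.000403) and NDC80 (-1.34 ± 0.31, edgeR adjusted p = 0.00444) were kept in every setting, and the others, CDC45, POLE2 and CCNB1 among them, were not. The count of 7 fell to 4 without LS1034 replicate 1 and to 3 without HT-29 replicate 3. In LoVo against HT-29 CDC45 was lower (-1.39 ± 0.43, edgeR adjusted p = 0.0218; 13.4% of all genes lower, 13.7% higher), and the replicate number as a block gave 4 genes, all lower. The count there was 0 without LoVo replicate 1 (CDC45 at -0.99) or HT-29 replicate 3 (-1.02), and 3 without LoVo replicate 2, LoVo replicate 3 (CDC45 not among them) or HCT116 replicate 1.

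Libraries of the same line differed from each other in these genes, and S-phase and mitotic genes did not always move together. In LoVo the highest library was 3.25 times the lowest in the median S-phase gene and 2.18 times in the median mitotic gene, against 1.87 times in the median of all genes at 10 CPM or more. In HT-29 the ratios were 2.05 and 1.60 against 1.47, in LS1034 1.87 and 1.69 against 1.56, and in HCT116 1.58 and 1.57 against 1.80. In CCD 841 CoN they were 1.49 and 1.56 against 1.22, so HCT116 was the line in which these genes varied no more than the rest. LoVo replicate 2 lay above its line's mean in 20 of 20 S-phase genes, LoVo replicate 1 in 0 of 20 and LoVo replicate 3 in 4. In mitotic genes, replicates 2 and 3 each lay above it in 19 of 25 and replicate 1 in 1. The share of all genes above the mean was not counted. In LoVo replicate 2 the median log2 difference from that mean was 0.14 over all genes tested, against 0.89 in S-phase and 0.17 in mitotic genes.

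The sum of the S-phase genes over the sum of the mitotic genes gives the balance within a library. It was 0.349, 0.613 and 0.236 in LoVo, 0.63, 0.686 and 0.443 in LS1034, 0.373, 0.543 and 0.539 in HT-29 and 0.47, 0.811 and 0.83 in HCT116, against 0.471, 0.844 and 0.802 in CCD 841 CoN. LoVo replicate 3 had the lowest balance and CCD 841 CoN replicate 2 the highest. CCD 841 CoN replicate 1 stood apart from the other 2 libraries of its line. It was above both in 25 of 25 mitotic genes (median log2 difference 0.51 from their mean) and below both in 15 of 20 S-phase genes (-0.49). The share of all genes above or below both was not counted, so these counts have no background beside them. Its median log2 difference from its line's mean was 0.002 over all genes tested, 0.34 in mitotic and -0.31 in S-phase genes. Libraries numbered 1 had the largest totals in every line, and the part of depth in these differences was not tested. Without LoVo replicate 1 and CCD 841 CoN replicate 1 together, 34 genes were still called in LoVo, 30 in LS1034, 40 in HT-29 and 45 in HCT116 against CCD 841 CoN.

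**Figure D4:**
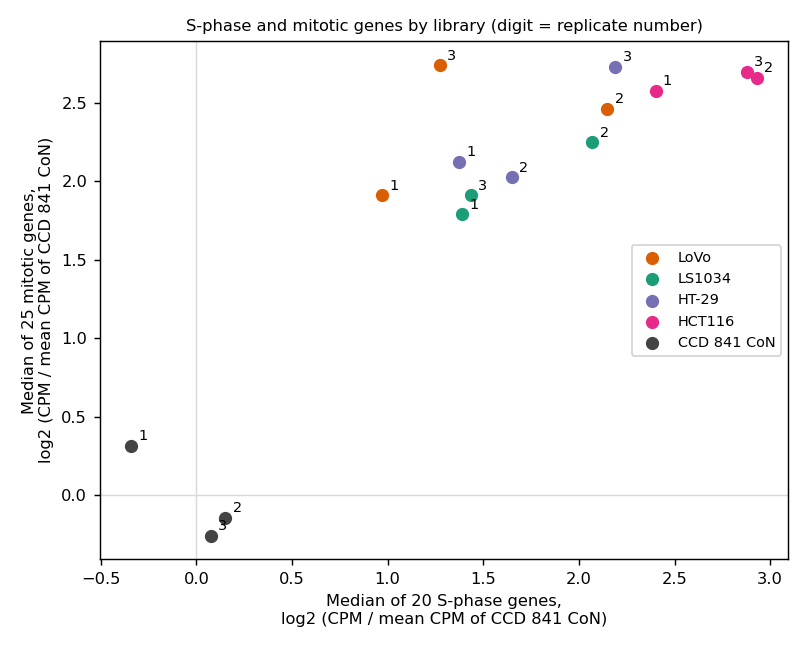
Median over 20 S-phase genes (x axis) and over 25 mitotic genes (y axis) of log2 CPM over the mean of CCD 841 CoN, 1 point per unmixed library with its replicate number. The LoVo points spread from 0.97 to 2.15 along the S-phase axis, the HCT116 points lie at 2.40 or more, and CCD 841 CoN replicate 1 lies apart from the other 2 normal libraries.

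Other genes of the same pathways were counted from lists of 36 further replication genes, of which 35 were tested, 46 further mitosis genes and 20 regulators of the E2F, retinoblastoma and MuvB families. Over the mean of the cancer lines 21 of 35 replication genes and 42 of 46 mitosis genes were called higher, and none lower (24.8% of all genes were higher). DNA2, a nuclease-helicase of replication (2.47 ± 0.38, edgeR adjusted p = 3.64e-05), and ORC1, the largest origin recognition subunit (2.46 ± 0.47, edgeR adjusted p = 0.000298), rose most, and PRIM2, a primase subunit, changed least (-0.12 ± 0.21, edgeR adjusted p = 0.653). Among mitosis genes INCENP, the scaffold of the passenger complex, had the largest change (3.15 ± 0.69, edgeR adjusted p = 0.000925) and KPNA2, an importin, the smallest (0.30 ± 0.21, edgeR adjusted p = 0.226). INCENP stood at only 0.881 ± 0.717 CPM in CCD 841 CoN (SD, n = 3), so its fold is imprecise. In HCT116 the counts were 29 of 35 and 42 of 46, where 25.4% of all genes tested were called higher.

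Of the 20 regulators 8 were called higher over the mean, none lower, and 12 were not called. Of all genes tested, 24.8% were called higher and 22.3% lower. The genes named next are therefore not a reading of the regulators as a group. E2F8, an atypical repressor E2F that is itself an E2F target, had the largest change (3.23 ± 0.46, edgeR adjusted p = 1.5e-05), with means of 18.8 CPM in LoVo, 29.4 in LS1034, 28.4 in HT-29 and 38.7 in HCT116, against 2.45 CPM in CCD 841 CoN. The activator E2F2 (2.10 ± 0.43, edgeR adjusted p = 0.000587) and LIN9, a MuvB subunit (1.90 ± 0.29, edgeR adjusted p = 2.97e-05), were also higher. MYBL2, which encodes B-MYB, was higher by 1.54 ± 0.50, edgeR adjusted p = 0.0143, and E2F1 by 1.22 ± 0.41, edgeR adjusted p = 0.0188. RB1, the retinoblastoma gene, was not called (0.32 ± 0.22, edgeR adjusted p = 0.23), and LIN37, a MuvB subunit, had the lowest value (-0.89 ± 0.48, edgeR adjusted p = 0.12).

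In the mixtures, mitotic genes were called higher from 10% cancer RNA and S-phase genes at 50%. Whether the sets differ at 10% was not itself tested, and their medians already lay apart at 0.1%. The 4 mixtures of a percentage, 1 per cancer line, were compared with the 3 CCD 841 CoN libraries (edgeR, 13571 genes, adjusted p below 0.05 with no fold limit). The 4 lines thus stand as the libraries of a percentage, and differences between lines count as spread. All 4 mixtures also hold CCD 841 CoN RNA, so they may not be independent of each other, and the p-values carry that limit. At 0.1% no gene of the 45 was called, with 1 S-phase and 3 mitotic genes at an unadjusted p below 0.05 and 0 called by DESeq2 (0% of all genes were called by edgeR). At 1% none was called by edgeR, with 2 S-phase and 6 mitotic genes at an unadjusted p below 0.05 and 1 called by DESeq2 (0.0516% of all genes higher, 0.0368% lower). At 10% 16 mitotic genes were called higher (3.59% of all genes higher, 3.63% lower). No S-phase gene was called there, with 2 at an unadjusted p below 0.05 and 1 called by DESeq2. At 50% 17 S-phase and 24 mitotic genes were called higher (26.6% of all genes higher, 22.5% lower). The median log2 fold change of the mitotic genes was 0.27 at 0.1%, 0.31 at 1%, 0.81 at 10% and 1.76 at 50%. That of the S-phase genes was -0.20, -0.22, 0.26 and 1.29, against 0 to 0.12 over all genes tested. At 0.1% the mitotic genes summed to 1217 to 1266 CPM. The CCD 841 CoN sums were 1248 CPM in replicate 1, 901 in replicate 2 and 911 in replicate 3. How far this offset sets the order of the 2 sets at 10% was not tested.

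HMGB2 had the smallest adjusted p at 10% and was the gene kept in every setting. It stood at 83.9, 73.6, 70.8 and 71.1 CPM in the 0.1% mixtures of LoVo, LS1034, HT-29 and HCT116, at 77.9, 87.1, 87.8 and 86.5 CPM at 1%, at 158, 152, 183 and 154 CPM at 10% and at 449, 370.5, 454 and 484 CPM at 50%, against 80.3, 73.8 and 69.4 CPM in CCD 841 CoN. The 10% mixtures lay well above the normal libraries and 3 of the 4 mixtures at 0.1% lay among them (log2 fold change 1.04 ± 0.10, edgeR adjusted p = 3.71e-05 at 10% and 2.40 ± 0.10, edgeR adjusted p = 4.54e-11 at 50%). MKI67 stood at 19, 18, 19.4 and 16.1 CPM at 0.1% in the same line order, 20.7, 25, 20.9 and 18.6 CPM at 1%, 32.2, 26.8, 50.02 and 27.9 CPM at 10% and 91.1, 62.2, 129 and 85.6 CPM at 50%, against 24.1, 7.97 and 9.70 CPM in CCD 841 CoN. It had the largest change at both levels (1.21 ± 0.32, edgeR adjusted p = 0.0289 at 10%; 2.55 ± 0.34, edgeR adjusted p = 7.7e-06 at 50%), and its 0.1% mixtures lay within the normal range, whose top is CCD 841 CoN replicate 1. Its call at 10% ended without the HT-29 mixture (0.97) and without CCD 841 CoN replicate 2 (0.94) or replicate 3 (1.02). MCM2 stood at 37.2, 48.4, 79.4 and 83.5 CPM at 10% and 62.8, 115, 206 and 261 CPM at 50%, against 25.6, 42.4 and 37.7 CPM in CCD 841 CoN. Its LoVo mixture at 10% lay within the normal range and its HCT116 mixture was the highest (log2 fold change 0.74 ± 0.37, edgeR adjusted p = 0.279 at 10%).

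The count at 10% was 8 with the 0.1% mixtures as control, 10 without the HT-29 mixture and 7 without CCD 841 CoN replicate 2 or replicate 3. Without CCD 841 CoN replicate 1, 3 genes were called at 0.1% and 5 at 1%, all higher. Read against single normal libraries, the 0.1% mixtures lay closest to replicate 1 of CCD 841 CoN. Their median log2 ratio to it was 0.01 to 0.11 in S-phase genes and -0.08 to 0.02 in mitotic genes. Against replicate 2 the medians were -0.45 to -0.30 and 0.40 to 0.49, and against replicate 3 -0.38 to -0.22 and 0.48 to 0.58. At 50% the genes not called were CCNE2 (0.04 ± 0.35, edgeR adjusted p = 0.929), CCNE1 (0.30 ± 0.24, edgeR adjusted p = 0.308), CENPE (0.35 ± 0.21, edgeR adjusted p = 0.162) and MCM10 (0.99 ± 0.50, edgeR adjusted p = 0.111). CCNE1, CCNE2 and CENPE were also not called in the unmixed mean, whose rule adds the fold limit. CENPE passed the adjusted p there and missed only that limit. The calls of CDC45, MCM4 and MCM5 at 50% were lost without 1 library: without the HT-29 mixture for CDC45 (0.58), and without the HCT116 mixture for MCM4 (0.78) and MCM5 (0.29). They were lost too without CCD 841 CoN replicate 1 (1.02, 1.12 and 0.74), that of MCM4 without replicate 3 (1.20), and that of MCM5 without replicate 2 (0.87) or replicate 3 (0.93).

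Each mixture was then set against the level expected from the mean CPM of its unmixed lines, weighted by the percentage. At 50% the median log2 ratio of observed to expected was -0.48 in S-phase and 0.18 in mitotic genes of LoVo, -0.29 and 0.01 in LS1034, 0.41 and 0.50 in HT-29 and 0.05 and -0.01 in HCT116. The medians of all genes at 10 CPM or more lay between -0.04 and -0.02. The HT-29 mixture at 50% was thus above its expected level in both sets, in 19 of 20 S-phase and 23 of 25 mitotic genes, and in LoVo 0 of 20 S-phase genes were above it. These ratios moved with the library taken as pure profile. Over the 9 pairs of single unmixed libraries the LoVo S-phase median ranged from -1.14 to 0.09, and that of HT-29 from 0.03 to 0.86. The sets were already offset at 0.1%, where nearly all RNA is that of the normal line. The S-phase medians there were -0.20 in LoVo, -0.24 in LS1034, -0.32 in HT-29 and -0.19 in HCT116. The mitotic medians were 0.33, 0.25, 0.28 and 0.29 in the same order, against 0.01 to 0.02 over all genes. How far this offset enters the medians at 50% was not tested.

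The same values can be written as a share of cancer RNA, from the summed CPM of the genes called in that line. At 10% the share was 14.2% in LoVo (9.01 to 27.6% over the 9 pairs of single libraries), 13.9% in LS1034 (9.55 to 17.4%), 23.4% in HT-29 (15.7 to 30.6%) and 12.3% in HCT116 (10.8 to 13.6%). At 50% it was 51.5% in LoVo (39.4 to 92.2%), 48.9% in LS1034 (37.6 to 57.9%), 81.0% in HT-29 (58.3 to 102.3%) and 52.9% in HCT116 (50.5 to 56.1%). HT-29 and HCT116 lay above the mixed percentage at both levels over all 9 pairs, HT-29 by more. Read apart at 50%, the S-phase genes gave 25.1% in LoVo (12.3 to 61.7% over the 9 pairs), 36.6% in LS1034 (23.8 to 57.9%), 86.6% in HT-29 (57.0 to 149.0%) and 58.3% in HCT116 (50.1 to 83.5%). The mitotic genes gave 57.9% in LoVo (42.2 to 97.8%), 55.2% in LS1034 (44.8 to 66.6%), 78.5% in HT-29 (57.9 to 98.0%) and 49.1% in HCT116 (41.9 to 53.9%). The ranges of the 2 sets overlapped in all 4 lines. Both ranges come from the same 9 pairs, so their overlap cannot tell whether the sets differed. Each mixture is 1 library, so these shares have no replicate error beyond that range. How far the offset seen at 0.1% enters these shares was not tested.

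**Figure D5:**
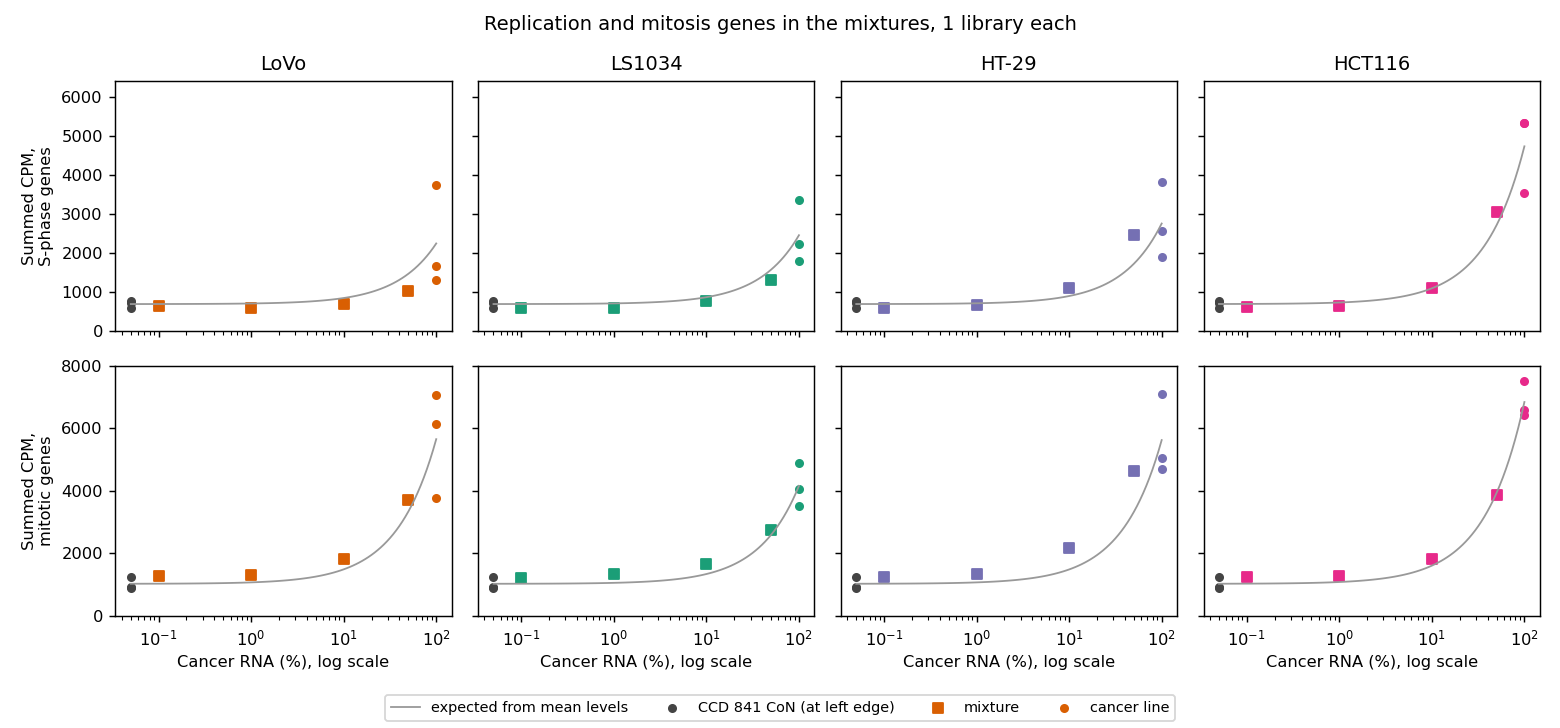
Summed CPM of the 20 S-phase genes (top) and 25 mitotic genes (bottom) against the percentage of cancer RNA (log scale) for each cancer line; squares are mixtures (1 library each), circles at 100 are unmixed cancer libraries, dark circles at the left edge are CCD 841 CoN, and the curve is the level expected from the means. The HT-29 squares at 10 and 50% lie above the curve in both rows, and the LoVo square at 50% lies below it in the top row.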

How the data were processed

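Ribosome-depleted total RNA was sequenced with a stranded kit, and reads were aligned with STAR and counted with featureCounts on hg19, per the submitters' processing notes. Versions and the strand setting are not given in the sources used here. The authors deposited raw counts of 17113 protein-coding genes in 31 libraries, which were used as deposited.

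Tests used edgeR 4.0.16 in R 4.3.3 (quasi-likelihood, TMM, filterByExpr, Benjamini-Hochberg adjustment over all genes tested), with the 15 unmixed libraries in 1 fit and the 16 mixtures with CCD 841 CoN in another. DESeq2 1.42.0 was an alternative. SE was taken from the fold change and the F statistic. The scripts were tested on simulated counts. CPM and shares were computed in Python 3.11.15. The genes and lists were chosen with earlier results of these data known. Folds were given for the largest and smallest change of each role group, for uncalled genes and for the largest ranges between lines; other genes named with folds were chosen after their values were seen. Same-numbered libraries of different cancer lines deviated together (18 of 18 pairs matched best with their own number, correlations 0.143 to 0.468), and those of CCD 841 CoN did not (2 of 12, -0.03 to 0.02), so the numbers pair cancer libraries only.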

Additional observations from a re-analysis of the deposited data

Results flagged for a closer look

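The share of cancer RNA from these genes was 51.5% in the LoVo, 48.9% in the LS1034, 81.0% in the HT-29 and 52.9% in the HCT116 mixture at 50%. HT-29 stood far from the other 3, among 18 groups of 4 mixtures examined, of which chance sets about 1 in 20 apart.

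CCNA2 differed in its change against CCD 841 CoN between cancer lines by the edgeR test of the difference itself. The log2 difference was 1.53 in LoVo against LS1034, -1.92 in LS1034 against HT-29 and -2.19 in LS1034 against HCT116. LS1034 alone lay near CCD 841 CoN (-0.19), and the 3 differences kept their call in every setting tried.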

How the results depend on the processing

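No called value changed direction under any setting. Without 1 library, the number of the 45 genes called ranged from 30 to 40 in LoVo, 28 to 33 in LS1034, 35 to 42 in HT-29, 43 to 45 in HCT116 and 41 to 42 over their mean, each against CCD 841 CoN. It ranged from 5 to 21 in LoVo against HCT116, 12 to 18 in LS1034 against HCT116, 3 to 18 in HT-29 against HCT116, 3 to 10 in LoVo against LS1034, 3 to 7 in LS1034 against HT-29, 0 to 3 in LoVo against HT-29 and 16 to 29 in the F test. In the mixtures it ranged from 0 to 3 at 0.1%, 0 to 5 at 1%, 7 to 19 at 10% and 38 to 42 at 50%. LoVo against HT-29, with 1 gene, gave 2 with DESeq2, 4 with the replicate number as a block over the 15 unmixed or the 12 cancer libraries, and 0 with the compared groups alone or without the LoVo and CCD 841 CoN libraries numbered 1. That omission and the block among cancer libraries were chosen after seeing the data. The block also ended the LoVo calls of CDC20 and BIRC5 and moved no other count by over 1.5 times. LoVo against HCT116 gave 5 without those libraries numbered 1, LoVo against LS1034 8 with adjusted p alone, and the 1% mixtures 1 with DESeq2. The 10% mixtures gave 4 with a fold limit and 8 with the 0.1% mixtures as control. The causes were not tested.

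With single unmixed libraries as pure profiles, shares at 10% reached 27.6% in LoVo, 9.55 and 17.4% in LS1034, 15.7 and 30.6% in HT-29 and 10.8 and 13.6% in HCT116. At 50% they reached 92.2% in LoVo, 37.6% in LS1034, 58.3 and 102.3% in HT-29 and 50.5 and 56.1% in HCT116. The observed-to-expected log2 medians at 50% reached -1.14 and 0.094 (S-phase) and 0.72 (mitotic) in LoVo, -0.69 and 0.12 (S-phase) and -0.22 and 0.31 (mitotic) in LS1034, 0.031 and 0.86 (S-phase) and 0.14 (mitotic) in HT-29, and 0.36 (S-phase) and -0.24 (mitotic) in HCT116. Each mixture is 1 library and each line has 3, which limits the precision; the part of depth was not tested, and the lowest count of any of these genes was 38.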
